A study of Mus musculus with 12 samples.

Results

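A tissue-by-genotype interaction asks of each gene whether loss of *Tpp1* changed it by the same factor in the cerebellum (Cb) and in the rest of the brain, here taken as forebrain/midbrain (F/M). *Tpp1* encodes tripeptidyl peptidase 1, a lysosomal protease whose absence causes late infantile neuronal ceroid lipofuscinosis, and the homozygous targeted mice (T) were compared with wild-type siblings (N). All 12 deposited libraries entered the test, 3 in each of the groups Cb-N, Cb-T, F/M-N and F/M-T, chosen by the title of each sample. All were from male mice of 4 months of age, the labels name no treatment, and the line was kept by heterozygous crosses. The allele is a germline disruption, so every cell of the T mice carried it. The interaction is the log2 fold change (T vs. N) in Cb minus the log2 fold change in F/M, so a positive value marks a change that was more positive in Cb. Of 52459 genes listed, 17482 passed the filter on low counts and entered edgeR's quasi-likelihood test. An interaction call needed an adjusted p under 0.1 and changes that differed by 1.5-fold or more between the tissues, and the same limits define a change (DEG) within 1 tissue.

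Loss of a lysosomal enzyme leaves undegraded material in neurons and glia, and microglia and astrocytes respond to it. Microglia, the resident macrophages, raise a set of genes for phagocytosis, lipid handling and lysosomal proteolysis, while astrocytes raise filaments, complement and secreted proteins. The type I interferon response is a separate program, in which a receptor signal switches on antiviral genes through a transcription factor complex that contains IRF9, and IRF7 amplifies the signal.

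Each library held between 21428379 and 24458189 counts. The floor of detection, taken as 3 counts, was 0.123 to 0.140 CPM (counts scaled to library size, with TMM factors) and covers counting error only. By the study's methods, Cb and F/M RNA came from 3 mice per genotype, so the tissues may share animals. Whether Cb and F/M libraries that share a number came from 1 mouse is not given in the labels. The main test took the 12 libraries as independent, and p-values here measure the spread between these libraries. That spread was small, with a biological coefficient of variation of 0.0269. Replicate pairs had a chi-square per degree of freedom of 1.27 to 3.37, where counting error alone gives about 1. How far this spread covers variation between animals cannot be told from these libraries. *Tpp1* itself had 94.4, 88.7 and 87.8 CPM (F/M-N) vs. 23.9, 21.8 and 23.3 CPM (F/M-T), and 112, 114 and 112 CPM (Cb-N) vs. 28, 31.1 and 30.1 CPM (Cb-T). It fell in both tissues with no overlap, and the changes differed by 0.05 (SE 0.06, adjusted p = 0.67), with a 95% interval of -0.08 to 0.18.

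The tissue labels were checked against defining markers. The granule cell gene *Gabra6* had 845 to 855 CPM (Cb-N) and 637 to 654 CPM (Cb-T), against 0.414 to 0.593 CPM over all F/M libraries. It was lower in Cb-T with no overlap, while another granule cell gene, *Cbln3*, had 1729 to 1741 CPM (Cb-N) and 1744 to 1758 CPM (Cb-T). *Neurod6*, a transcription factor gene of forebrain excitatory neurons, had 77.1 to 79.9 CPM (F/M-N) and 69.8 to 70.9 CPM (F/M-T). In Cb it had 6.61 to 7.20 CPM (Cb-N) and 4.90 to 6.38 CPM (Cb-T). Genes of other regions also moved with genotype in both tissues. The summed level of 30 Hox genes, which are expressed in hindbrain and spinal cord but not in the cerebellum proper, went from a range of 0.511 to 0.734 CPM (Cb-N) to one of 14.6 to 15.4 CPM (Cb-T), against 0.135 to 0.350 CPM over the F/M libraries, where 23 or 24 of the 30 were at 0 in each group. In F/M, the summed level of 9 olfactory bulb genes was 60.6 to 63.1 CPM (F/M-N) and 29.9 to 31.9 CPM (F/M-T), and the raphe genes *Slc6a4* and *Tph2* were higher in F/M-T. That sum is not particular to the bulb, since it was 180.1 to 195.0 CPM in Cb-N and 133.2 to 141.4 CPM in Cb-T, mostly from *Gng13* and *Eomes*. These shifts accompany each result below, and their part in the interaction was not tested. Fewer cells of a type and less RNA per cell cannot be told apart in bulk tissue.

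An interaction was called for 1331 of the 17482 genes, or 7.61%. The change was more positive in Cb for 1121 (6.41%) and less positive in Cb for 210 (1.20%). Within Cb, 2084 genes (11.9%) changed, and within F/M 636 (3.64%). The T libraries lay apart from the N libraries, with no overlap in either direction, for 55.0% of the tested genes in Cb and 35.9% in F/M. Of the genes with an interaction, 922 changed in Cb alone, 77 in F/M alone, 104 in both tissues in the same direction and 28 in both in opposite directions, and the remaining 200 passed the limits in neither tissue taken alone.

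How often an interaction was called depended on where the gene was expressed in the controls. Among the 1404 genes whose F/M-N level was more than 4-fold above that in Cb-N, 45.8% had an interaction, 639 of them more positive in Cb and 4 less positive. The share was 13.95% among the 2745 genes that were 1.5-fold to 4-fold higher in F/M-N. Of the 9884 genes within 1.5-fold in Cb-N and F/M-N, called baseline-matched here, 141 had an interaction, which is 1.43%. Genes higher in Cb-N leaned the other way, with 16 more positive and 80 less positive calls among 2830 genes at 1.5-fold to 4-fold and 6 against 62 among 619 genes at more than 4-fold. The share of calls that were more positive in Cb was 84.2% over all genes and 62.4% among the baseline-matched genes. The baseline classes and the interaction share the N libraries, so these shares are a description and were not tested. At the edge of the baseline limit, *Adamtsl5* was inside at 1.4996-fold and *Caps2* was outside at 1.5034-fold.

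**Figure D1:**
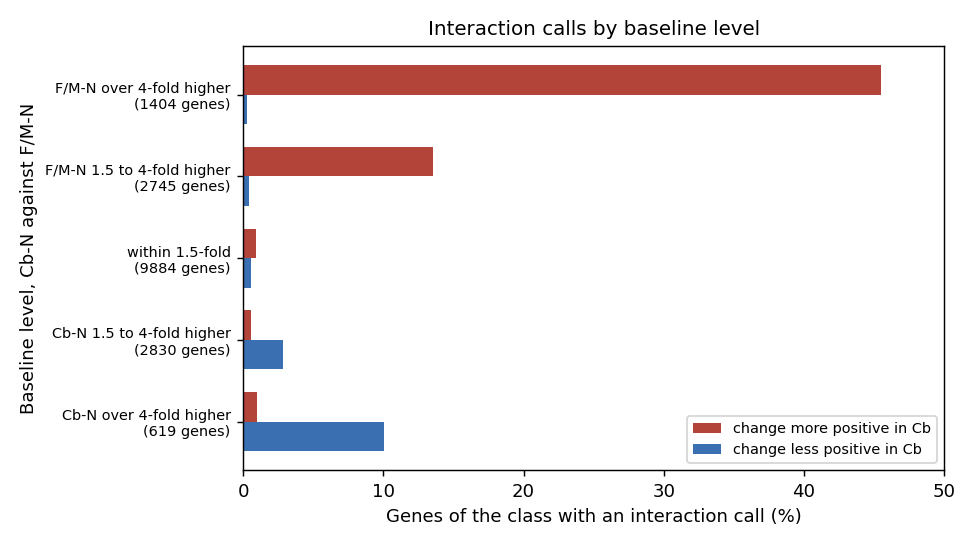
Share of genes with an interaction call (horizontal axis, percent) in 5 classes of baseline level (vertical axis, Cb-N against F/M-N, with the number of tested genes). Red bars are genes whose change was more positive in Cb and blue bars genes whose change was less positive. The red bar reaches 45.5% where F/M-N was more than 4-fold higher, and both bars stay under 1% within 1.5-fold.

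The 88 baseline-matched genes that were more positive in Cb included astrocyte and microglial genes, a transporter and a peptide receptor. In 86 of them the log2 change in Cb was above 0, while the F/M change was below 0 in 49. By class, 41 changed in Cb alone, 12 in both tissues in the same direction, 9 in F/M alone, 1 in both in opposite directions and 25 in neither.

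*Gfap*, the intermediate filament of astrocytes (chromosome 11, 102887336 to 102900912, GRCm38), started at a like level and rose in both tissues. It had 184, 184 and 188 CPM (F/M-N) vs. 614, 604 and 621 CPM (F/M-T), against 155, 152 and 152 CPM (Cb-N) vs. 1143, 1146 and 1138 CPM (Cb-T). The groups did not overlap, and the interaction was 1.17 (SE 0.03, adjusted p = 2.4e-21). *Chil1* (chromosome 1, 134182176 to 134190181), a chitinase-like protein secreted by reactive astrocytes, began lower in Cb and ended higher, with 11.2, 11 and 9.06 CPM (F/M-N) vs. 18, 16.3 and 16.1 CPM (F/M-T), and 7.68, 7.71 and 7.84 CPM (Cb-N) vs. 29.4, 29 and 28.4 CPM (Cb-T). Its log2 change was 1.90 in Cb and 0.69 in F/M, a difference of 1.21 (SE 0.11, adjusted p = 6.8e-10). Of the 31 tested genes on a reactive astrocyte list, 16 were more positive in Cb and 0 less positive, and among its 13 baseline-matched members 5 were called (*Gfap*, *Cd109*, *Aspg*, *Fbln5* and *Osmr*). Over all genes 6.41% were more positive, and over all baseline-matched genes 0.890%. The median interaction of the list was 0.79, against 0.027 over all genes tested. *Cd109* (chromosome 9, 78615546 to 78716253), a membrane-anchored protein that binds TGF-beta, had 2.3, 2.61 and 3.09 CPM (F/M-N) vs. 3.37, 4.1 and 3.68 CPM (F/M-T), and 2.62, 1.74 and 1.9 CPM (Cb-N) vs. 6.54, 6.45 and 7.05 CPM (Cb-T) (interaction 1.19, SE 0.21, adjusted p = 9.7e-05). *Fbln5*, an elastic fiber protein, had 9.42, 8.74 and 9.06 CPM (F/M-N) vs. 9.99, 10.1 and 9.12 CPM (F/M-T) with overlapping libraries, and rose in Cb from 9.14, 9.77 and 9.65 CPM to 18.9, 19.3 and 17.1 CPM (interaction 0.85, SE 0.11, adjusted p = 8.8e-07).

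Microglial genes were also among the baseline-matched calls. *Gpnmb* (chromosome 6, 49036546 to 49070929), a glycoprotein of phagocytic microglia, had 2.21, 2.48 and 2.46 CPM (F/M-N) vs. 9.24, 8.12 and 7.41 CPM (F/M-T), against 3.33, 2.84 and 2.88 CPM (Cb-N) vs. 31.4, 34.9 and 30.4 CPM (Cb-T). The rise was separated from the controls in both tissues and larger in Cb by 1.62 (SE 0.18, adjusted p = 5.2e-08). *Spp1* (chromosome 5, 104435118 to 104441050), which encodes the secreted protein osteopontin, had 19.6, 19.1 and 18.8 CPM (F/M-N) vs. 23.3, 23.1 and 22.6 CPM (F/M-T), a difference within the fold limit, and rose from 24.8, 26.1 and 27.7 CPM in Cb-N to 67.7, 69 and 74.3 CPM in Cb-T. Its interaction was 1.16 (SE 0.08, adjusted p = 6.1e-13), with no overlap of T and N in either tissue. *Lilrb4a*, an inhibitory receptor of myeloid cells, had 0.477, 0.405 and 0.508 CPM (F/M-N) vs. 3.5, 2.9 and 3.6 CPM (F/M-T), and 0.4, 0.505 and 0.464 CPM (Cb-N) vs. 7.01, 6.77 and 5.43 CPM (Cb-T) (interaction 0.97, SE 0.39, adjusted p = 0.072). The call of *Lilrb4a* was lost in 7 of the 12 fits that left out 1 library (0.85 to 1.06 over all 12), without F/M-N library 1 or 3, F/M-T library 2, Cb-N library 1 or 3, or Cb-T library 1 or 2. The lysosomal protease gene *Ctsd*, another neuronal ceroid lipofuscinosis gene, rose by 1.44 on the log2 scale in Cb and 0.80 in F/M (interaction 0.64, SE 0.05, adjusted p = 4.6e-12), and without Cb-T library 3 the difference was 0.57, just under the fold limit. Of 24 disease-associated microglia genes, 11 were more positive in Cb and 0 less positive (median interaction 0.66), and 5 of the 15 baseline-matched members were called, beside the same 6.41% and 0.890%. A steep rise on this list, that of the lectin receptor gene *Clec7a*, had log2 changes of 5.42 in Cb and 5.15 in F/M from control counts near the floor, and a difference of 0.27 (SE 0.53, adjusted p = 0.79) that did not pass. The summed level of 14 homeostatic microglia genes was 498 to 519 CPM (F/M-N) and 630 to 640 CPM (F/M-T), against 176 to 186 CPM (Cb-N) and 427 to 441 CPM (Cb-T), and the part of that shift in these differences was not tested.

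**Figure D2:**
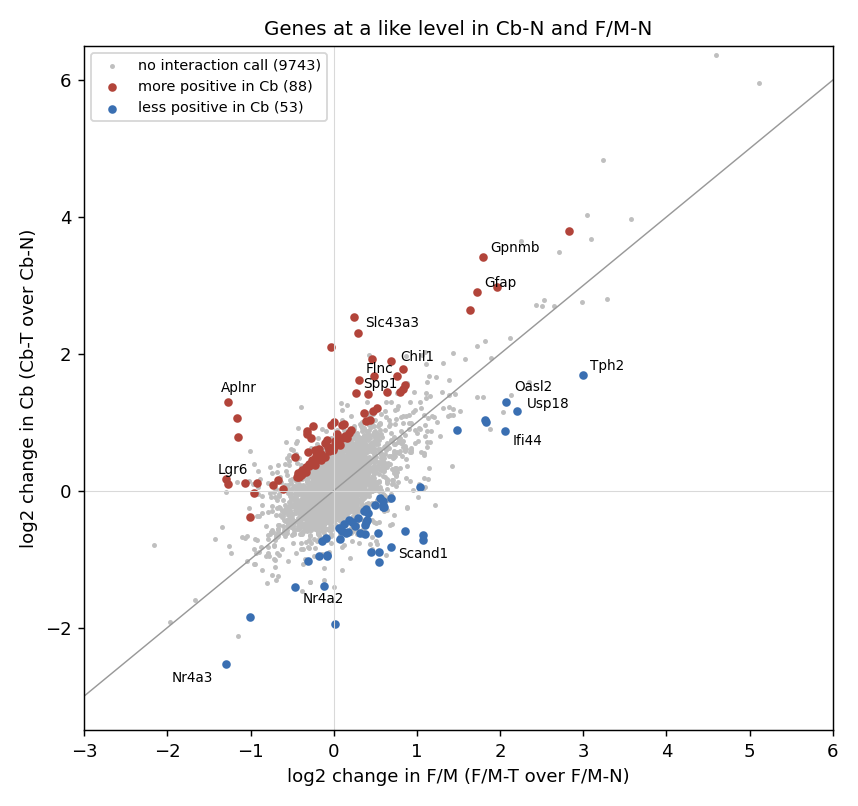
Log2 change in F/M (horizontal axis) against log2 change in Cb (vertical axis) for the genes within 1.5-fold between Cb-N and F/M-N, with the line of equal change. Red points are the 88 genes more positive in Cb, blue points the 53 less positive and gray points genes with no call, of which 1 lies off the axes. *Gfap* and *Gpnmb* sit above the line, and *Tph2*, *Usp18*, *Ifi44* and *Oasl2* below it.

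Outside these lists, the named baseline-matched differences included a transporter, a matrix protease, an actin crosslinker and a peptide receptor. *Slc43a3* (chromosome 2, 84936579 to 84958509), a purine nucleobase transporter, overlapped between F/M-N (0.781, 1.08 and 1.31 CPM) and F/M-T (1.62, 1.08 and 1.2 CPM) and rose in Cb from 1.29, 1.06 and 0.511 CPM to 4.43, 4.83 and 5.02 CPM, an interaction of 2.02 (SE 0.35, adjusted p = 5.5e-05). *Flnc* (chromosome 6, 29433256 to 29461883), an actin crosslinker, had 2.91, 3.87 and 3.56 CPM (F/M-N) vs. 4.38, 4.02 and 4.33 CPM (F/M-T), and 3.24, 4.13 and 3.34 CPM (Cb-N) vs. 11.1, 10.4 and 11.2 CPM (Cb-T). The Cb libraries were far apart and the F/M libraries only just so (interaction 1.31, SE 0.17, adjusted p = 1.0e-06). The metalloproteinase gene *Mmp19* had an interaction of 1.46 (SE 0.38, adjusted p = 0.0052), with overlapping libraries in F/M. *Ky*, a muscle peptidase gene, had 4.12, 3.87 and 3.85 CPM (F/M-N) vs. 2.85, 3.4 and 3.21 CPM (F/M-T), a log2 change of -0.32 that did not pass the limits, and rose in Cb from 3.24, 2.43 and 2.88 CPM to 4.73, 5.24 and 5.26 CPM (interaction 1.15, SE 0.19, adjusted p = 2.4e-05). *Akr1b8*, an aldo-keto reductase gene, and *Dmbx1*, a homeobox gene, were called at about 1 CPM in the controls, with interactions of 1.20 (SE 0.39, adjusted p = 0.025) and 1.19 (SE 0.46, adjusted p = 0.066). The call of *Akr1b8* was lost without F/M-N library 1 (0.81, adjusted p = 0.18), and that of *Dmbx1* without any 1 of 5 libraries, namely F/M-N 1, F/M-T 1, Cb-N 1, Cb-N 3 or Cb-T 2, with values from 0.91 to 1.49 over all 12 omissions.

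**Figure D3:**
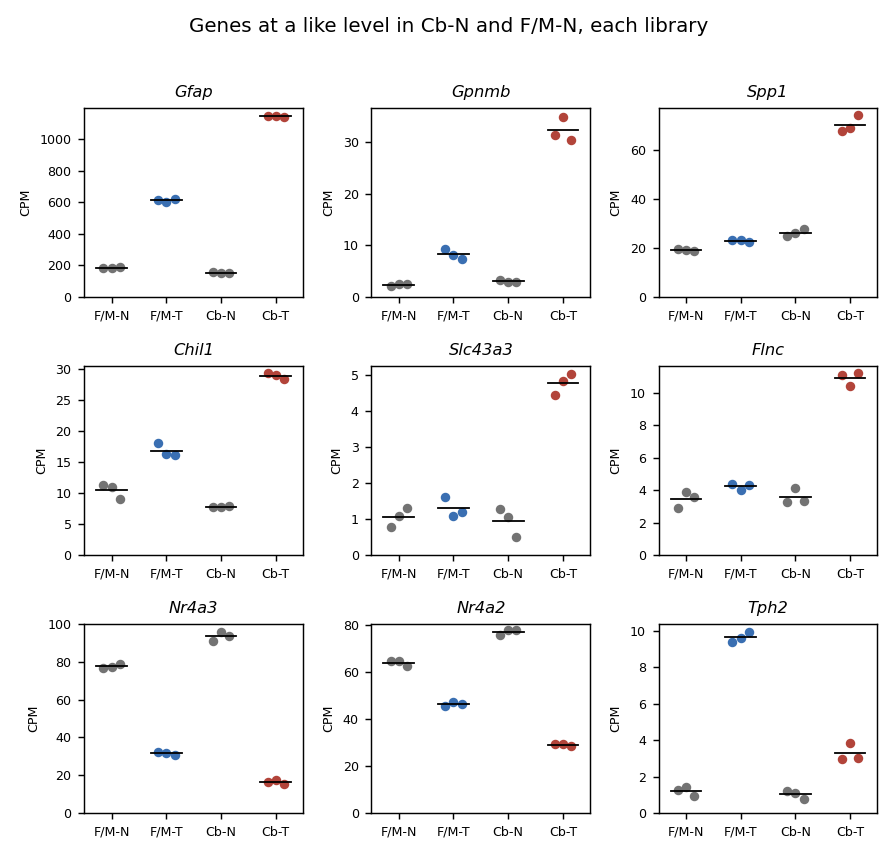
Level in each library (CPM, axis from 0) of 9 genes within 1.5-fold between Cb-N and F/M-N. Each point is a library and each line the mean of 3. *Gfap*, *Gpnmb*, *Spp1*, *Chil1*, *Slc43a3* and *Flnc* are highest in Cb-T, *Nr4a3* and *Nr4a2* lowest there, and *Tph2* is highest in F/M-T.

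The 53 baseline-matched genes that were less positive in Cb held nuclear receptors that fell further in Cb and interferon genes that rose further in F/M. In 45 of the 53 the log2 change in Cb was below 0, and in 43 the change in F/M was above 0. *Nr4a3* (chromosome 4, 48045153 to 48086447) and *Nr4a2* (chromosome 2, 57106830 to 57124003) encode orphan nuclear receptors that are induced within minutes to hours of neuronal activity. *Nr4a3* had 77, 77.6 and 79 CPM (F/M-N) vs. 32.3, 31.9 and 30.6 CPM (F/M-T), against 91.3, 96.2 and 93.9 CPM (Cb-N) vs. 16.1, 17.3 and 15.3 CPM (Cb-T). *Nr4a2* had 64.5, 64.9 and 62.8 CPM (F/M-N) vs. 45.7, 47.2 and 46.3 CPM (F/M-T), and 75.8, 77.9 and 78.1 CPM (Cb-N) vs. 29.5, 29.4 and 28.4 CPM (Cb-T). The T libraries were below the N libraries in both tissues with no overlap, although the F/M change of *Nr4a2* (-0.46) stayed within the fold limit. The interactions were -1.23 (SE 0.06, adjusted p = 3.3e-15) and -0.94 (SE 0.06, adjusted p = 4.2e-14).

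Both are on a list of 29 immediate early genes, of which 9 were more positive in Cb and these 2 less positive, with 17 and 4 at an unadjusted p under 0.05. The list had a median Cb-N level of 0.406 times that of F/M-N, and of all genes 1.5-fold to 4-fold higher in F/M-N 13.6% were more positive and 0.401% less positive. The other baseline-matched members had no call. *Fos*, a subunit of the AP-1 transcription factor, had 91.3, 93 and 92.8 CPM (F/M-N) vs. 64.8, 63.8 and 62.8 CPM (F/M-T), and 90.1, 88.8 and 90.6 CPM (Cb-N) vs. 77.1, 77.4 and 77.5 CPM (Cb-T). Its libraries were apart in both tissues, and its interaction of 0.32 (SE 0.05, adjusted p = 4.9e-06) lay within the fold limit.

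*Tph2* (chromosome 10, 115078641 to 115185022), the rate-limiting enzyme of serotonin synthesis in raphe neurons, was baseline-matched and rose more in F/M. It had 1.259, 1.44 and 0.932 CPM (F/M-N) vs. 9.42, 9.61 and 9.94 CPM (F/M-T), against 1.2, 1.1 and 0.743 CPM (Cb-N) vs. 2.95, 3.87 and 3.03 CPM (Cb-T) (interaction -1.31, SE 0.28, adjusted p = 7.8e-04). The serotonin transporter gene *Slc6a4* (chromosome 11, 76998603 to 77032340) had 0.13, 0.0901 and 0.212 CPM (F/M-N) vs. 6.75, 6.09 and 6.17 CPM (F/M-T), and 0.4, 0.184 and 0.278 CPM (Cb-N) vs. 1.9, 1.33 and 1.82 CPM (Cb-T). Its level in F/M-N was close to the floor of 3 counts, so the log2 change of 5.39 in F/M and the interaction of -2.87 (SE 0.56, adjusted p = 2.6e-04) rest on a few counts there. *Dbh*, which makes noradrenaline in the locus coeruleus, moved the other way, from 0.533, 0.688 and 0.743 CPM in Cb-N to 7.72, 7.86 and 8.42 CPM in Cb-T with overlapping F/M libraries (interaction 3.48, SE 0.44, adjusted p = 5.0e-07).

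Further baseline-matched genes that were less positive in Cb were of low or moderate level. *Scand1*, a SCAN domain gene, had 1.95, 4.01 and 6.1 CPM (F/M-N) vs. 6.61, 6.88 and 6 CPM (F/M-T), which overlapped, and 3.55, 3.81 and 4.92 CPM (Cb-N) vs. 3.42, 1.93 and 1.58 CPM (Cb-T) (interaction -1.51, SE 0.34, adjusted p = 0.0012). *Zfp771*, a zinc finger gene, passed the limits in neither tissue and overlapped in Cb, with 6.94, 7.61 and 10.3 CPM (F/M-N) vs. 11.2, 11.2 and 10.6 CPM (F/M-T), and 7.1, 8.21 and 8.96 CPM (Cb-N) vs. 7.3, 6 and 4.81 CPM (Cb-T) (interaction -0.83, SE 0.18, adjusted p = 8.8e-04). The pseudogene *Pisd-ps1*, whose reads may be divided with its parent gene, fell in both tissues and further in Cb (interaction -0.85, SE 0.13, adjusted p = 1.1e-05). *Ccdc81*, a coiled-coil gene, rose in F/M alone (0.61, interaction -0.85, SE 0.28, adjusted p = 0.026). *Sigirr*, an inhibitory receptor of the interleukin-1 family, and the mesothelin gene *Msln* passed narrowly, with interactions of -0.79 (SE 0.33, adjusted p = 0.088) and -1.01 (SE 0.39, adjusted p = 0.062), and lost their calls when any 1 of 8 and any 1 of 4 libraries was omitted. For *Sigirr* these were F/M-N 1, F/M-N 2, F/M-T 2, F/M-T 3, Cb-N 1, Cb-N 2, Cb-T 1 and Cb-T 3 (values from -0.83 to -0.62), and for *Msln* F/M-N 1, F/M-T 1, F/M-T 3 and Cb-N 3 (values from -0.92 to -0.85). The median GC content of the longest transcripts was 51.2% for the 53 genes less positive in Cb, 49.8% for the 88 more positive and 49.5% over all genes tested, and the median lengths were 2012.5, 3078 and 3224 bases.

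A larger change in F/M than in Cb was found for 89 genes, defined as those with an interaction, a change in F/M past the limits and the greater absolute log2 change in F/M. The rule uses the F/M contrast, in which 3.64% of all genes changed, so these counts describe the set. Of the 89, 52 rose and 37 fell in F/M, 74 changed in F/M alone, 10 also changed in Cb in the same direction and 5 in the opposite direction, and 25 were baseline-matched. The T and N libraries were apart in F/M for 83 of them. DESeq2 gave 51 such genes.

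Interferon-stimulated genes made up 9 of the 52 genes that rose further in F/M. Of a list of 32 such genes, all tested, 9 were less positive in Cb and 0 more positive, beside 1.20% less positive over all genes. The interaction was below 0 for 29 of the 32, with a median of -0.36, against 0.027 over all genes. In F/M 29 of the 32 rose past the limits and in Cb 23, where 3.64% and 11.9% of all genes changed in either direction. Among the 23 baseline-matched members the median interaction was also -0.36 and 5 were called, beside 0.536% less positive over all such genes. The summed level of the list was 175 to 177 CPM (F/M-N) and 351 to 365 CPM (F/M-T), against 261 to 266 CPM (Cb-N) and 350 to 357 CPM (Cb-T), so the T libraries of the 2 tissues overlapped while the N libraries did not.

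*Irf7* (chromosome 7, 141262706 to 141266481), the transcription factor that amplifies interferon production, had 1.35, 1.8 and 1.48 CPM (F/M-N) vs. 8.19, 6.96 and 7.28 CPM (F/M-T), against 2.53, 2.16 and 2.41 CPM (Cb-N) vs. 4.52, 4.19 and 4.97 CPM (Cb-T). It rose in both tissues with no overlap, and every F/M-T library was above every Cb-T library. Its interaction of -1.33 (SE 0.21, adjusted p = 1.6e-05) was the most negative on the list, and its baseline ratio of 1.53 placed it just outside the matched class. *Oasl2*, an oligoadenylate synthetase-like protein, had nearly the same control level in both tissues, with 4.38, 3.69 and 4.11 CPM in F/M-N and 4.39, 4.68 and 3.67 CPM in Cb-N. It reached 17.6, 17.4 and 16.1 CPM in F/M-T and 9.5, 9.43 and 12.4 CPM in Cb-T, which did not overlap (interaction -0.77, SE 0.17, adjusted p = 8.7e-04).

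*Usp18* (chromosome 6, 121245906 to 121270917), the protease that removes ISG15 from proteins and dampens the receptor, had 0.955, 0.856 and 0.762 CPM (F/M-N) vs. 3.33, 4.14 and 4.45 CPM (F/M-T), and 1.2, 1.28 and 1.11 CPM (Cb-N) vs. 2.45, 2.62 and 2.98 CPM (Cb-T). *Ifi44* (chromosome 3, 151730922 to 151749960), an antiviral gene of low level, had 0.825, 0.766 and 0.551 CPM (F/M-N) vs. 3.11, 2.9 and 2.96 CPM (F/M-T), and 1.02, 0.826 and 1.11 CPM (Cb-N) vs. 1.81, 1.57 and 2.07 CPM (Cb-T). For each of them F/M-T lay above Cb-T without overlap although F/M-N began lower, and the interactions were -1.05 (SE 0.28, adjusted p = 0.0071) and -1.18 (SE 0.31, adjusted p = 0.0062). *Bst2*, which encodes the tetherin protein that holds budding virus at the membrane, had 2.08, 2.34 and 2.54 CPM (F/M-N) vs. 9.11, 7.46 and 8.1 CPM (F/M-T), and 2.75, 3.21 and 3.25 CPM (Cb-N) vs. 7.26, 5.28 and 6.38 CPM (Cb-T) (interaction -0.78, SE 0.20, adjusted p = 0.0045).

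*Irf9* (chromosome 14, 55603571 to 55610030), the DNA-binding subunit of the interferon-activated complex, already differed between the control tissues. It had 11.5, 11.7 and 12.4 CPM (F/M-N) vs. 17.7, 19.1 and 17.8 CPM (F/M-T), against 20.1, 21.1 and 19.2 CPM (Cb-N) vs. 18.3, 18.5 and 19.3 CPM (Cb-T). F/M-N was lowest, and the F/M-T libraries overlapped those of Cb-T. It rose in F/M alone, and the interaction was -0.73 (SE 0.09, adjusted p = 3.7e-07). The number of interferon genes called was 8 to 10 with any 1 library left out, and 2 in a test against the 1.5-fold difference itself (glmTreat).

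**Figure D4:**
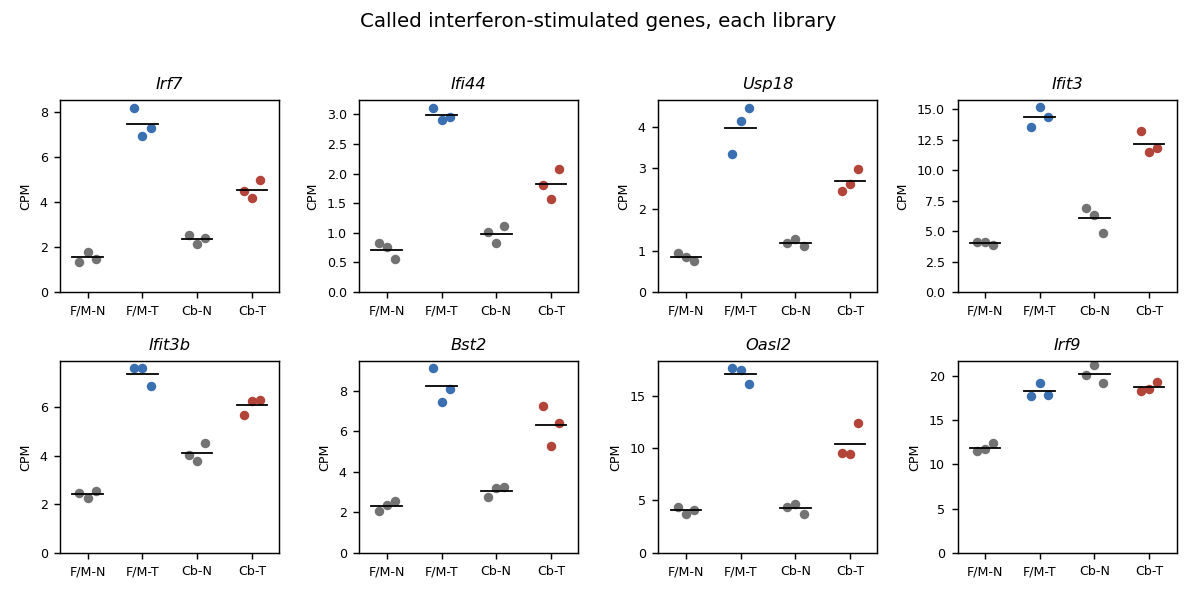
Level in each library (CPM, axis from 0) of 8 interferon-stimulated genes with an interaction. Each point is a library and each line the mean of 3. In *Irf7*, *Ifi44*, *Usp18* and *Oasl2* the F/M-T points lie above all Cb-T points, while in *Irf9* the F/M-N points are the lowest and those of Cb-T overlap F/M-T.

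Promoter sequence around the starts of these genes is shown because the interferon-stimulated response element, bound by the complex that contains IRF9, marks direct targets of the pathway. The core searched was a pair of GAAA tetramers with 2 bases between them, on either strand, from 250 bases before to 50 bases after each RefSeq start in GRCm38.p6, where 12357 of the tested genes had a promoter. It was found for 3.66% of the tested genes with a promoter, and in 3.44% of all 32851 promoters of that length. Of the interferon list, 13 of 23 genes with a promoter held it (56.5%), 3 of 7 among the members with an interaction (42.9%) and 10 of 16 among those without (62.5%). In windows of 30 bases on the gene's own strand, with the core in capitals, the called genes *Bst2*, *Ifit3* and *Ifit3b* and the uncalled genes *Ifit1*, *Isg15* and *Cxcl10* read as follows, with 1 core shown per promoter.
Bst2, chr8:71537583-71537612, gene strand minus: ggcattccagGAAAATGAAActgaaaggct
Ifit3, chr19:34583363-34583392, gene strand plus: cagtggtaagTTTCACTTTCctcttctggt
Ifit3b, chr19:34607759-34607788, gene strand plus: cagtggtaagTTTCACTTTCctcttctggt
Ifit1, chr19:34640775-34640804, gene strand plus: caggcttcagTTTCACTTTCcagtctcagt
Isg15, chr4:156200871-156200900, gene strand minus: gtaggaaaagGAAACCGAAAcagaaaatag
Cxcl10, chr5:92349083-92349112, gene strand minus: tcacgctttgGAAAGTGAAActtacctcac
In *Ifit3*, *Ifit3b* and *Ifit1*, on the plus strand of the genome, the core reads in capitals as its reverse complement. The windows of *Ifit3* and *Ifit3b* are identical, and reads of these near-identical genes may have been divided between them, so their separate values are uncertain. *Ifit3* had 4.12, 4.14 and 3.85 CPM (F/M-N) vs. 13.5, 15.2 and 14.3 CPM (F/M-T), and 6.92, 6.33 and 4.87 CPM (Cb-N) vs. 13.2, 11.5 and 11.8 CPM (Cb-T) (interaction -0.83, SE 0.15, adjusted p = 1.2e-04), and *Ifit3b* an interaction of -1.04 (SE 0.17, adjusted p = 2.6e-05). Genes that hold the core were found on both sides of the interaction limit, with interactions of -0.76 (SE 0.33, adjusted p = 0.104) for *Isg15*, -0.36 (SE 0.18, adjusted p = 0.18) for *Ifit1* and -1.19 (SE 0.68, adjusted p = 0.23) for *Cxcl10*.

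Genes of antigen presentation by MHC class I gave 1 call among 16 tested genes, that of *H2-D1*, beside 7.61% of all genes with a call in either direction. The median interaction of the list was -0.10, and its difference from the interferon list was not tested. *H2-D1* (chromosome 17, 35262730 to 35267499), a classical class I heavy chain, had 27.4, 29.2 and 31.7 CPM (F/M-N) vs. 62.8, 61.8 and 58.6 CPM (F/M-T), against 94.6, 94.7 and 96.5 CPM (Cb-N) vs. 114, 114 and 111 CPM (Cb-T). Its interaction was -0.80 (SE 0.06, adjusted p = 7.4e-12), from a baseline 3.23-fold higher in Cb-N, and its reads can be shared with other class I genes. For comparison, the light chain gene *B2m* (chromosome 2, 122147686 to 122153083) had 64.8, 63.2 and 67 CPM (F/M-N) vs. 152, 145 and 151 CPM (F/M-T), and 68.7, 67.9 and 65.9 CPM (Cb-N) vs. 138, 143 and 147 CPM (Cb-T), an interaction of -0.12 (SE 0.05, adjusted p = 0.086).

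Genes that fell further in F/M included activity-regulated genes and olfactory bulb genes. *Egr1* (chromosome 18, 34859823 to 34864984), a zinc finger factor induced by synaptic activity, had 414, 404 and 410 CPM (F/M-N) vs. 236, 235 and 242 CPM (F/M-T), against 58.3, 53.4 and 55.3 CPM (Cb-N) vs. 78, 74.2 and 73.1 CPM (Cb-T). *Arc* (chromosome 15, 74669083 to 74672570), a regulator of synaptic receptors, had 341, 336 and 338 CPM (F/M-N) vs. 211, 208 and 215 CPM (F/M-T), and 19.9, 22.4 and 20.9 CPM (Cb-N) vs. 28.6, 32.1 and 28.6 CPM (Cb-T). T and N were apart within each tissue, lower in F/M-T and higher in Cb-T, where the log2 changes of 0.43 and 0.50 were within the fold limit. The interactions were 1.22 (SE 0.05, adjusted p = 1.8e-18) and 1.18 (SE 0.06, adjusted p = 2.5e-15). In the controls *Egr1* in Cb-N was 0.136 times and *Arc* 0.0622 times the F/M-N level.

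The olfactory marker protein gene *Omp* (chromosome 7, 98143359 to 98145502), expressed in olfactory sensory neurons, had 3.34, 2.79 and 3.39 CPM (F/M-N) vs. 0.263, 0.249 and 0.471 CPM (F/M-T), and 0.311, 0.138 and 0.371 CPM (Cb-N) vs. 0.211, 0.443 and 0.622 CPM (Cb-T), which overlapped (interaction 3.89, SE 0.56, adjusted p = 3.5e-06). *Doc2g*, a synaptic C2 domain gene of the bulb, fell from 3.69, 3.83 and 4.79 CPM to 1.66, 1.24 and 0.985 CPM in F/M, and overlapped in Cb (interaction 1.47, SE 0.27, adjusted p = 1.4e-04). On the list of 9 olfactory bulb genes, 8 fell past the limits in F/M, where 3.64% of all genes changed in either direction. Of the 9, 4 were more positive in Cb, *Omp*, *Doc2g*, *Cdhr1* and *Tbx21*, against 3 with DESeq2 and 5 with limma-voom. The list had a median Cb-N level of 0.0861 times that of F/M-N, and 45.5% of all genes more than 4-fold higher in F/M-N were more positive. The 4 of 9 are near that share and are no result about the list. The call of *Tbx21*, at under 1 CPM in every group, was lost without Cb-T library 2 or 3 (interaction 2.90 and 2.83, adjusted p = 0.154 and 0.155 in edgeR). *Lgr6* and *Fhdc1*, both baseline-matched and on none of the lists, also fell in F/M. *Lgr6* (chromosome 1, 134983301 to 135105276), a receptor for R-spondins, had 8.64, 8.78 and 9.15 CPM (F/M-N) vs. 4.64, 4.89 and 4.5 CPM (F/M-T), against 11.9, 11.1 and 10.7 CPM (Cb-N) vs. 12.3, 13 and 11.3 CPM (Cb-T). *Fhdc1* (chromosome 3, 84442198 to 84480429), a formin family gene, had 11.9, 11.6 and 11.7 CPM (F/M-N) vs. 7.71, 7.79 and 6.68 CPM (F/M-T), and 9.5, 10.3 and 10.3 CPM (Cb-N) vs. 11.3, 11.9 and 10.6 CPM (Cb-T). Their interactions were 1.03 (SE 0.12, adjusted p = 1.9e-07) and 0.83 (SE 0.12, adjusted p = 2.5e-06), and neither passed the limits in Cb.

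A rise confined by the limits to F/M was also seen for *Ppp1r17*, a phosphatase inhibitor gene of Purkinje cells, but at a trace level. It had 1.17, 0.766 and 1.31 CPM (F/M-N) vs. 2.02, 2.32 and 1.93 CPM (F/M-T), against 261, 265 and 273 CPM (Cb-N) vs. 237, 227 and 233 CPM (Cb-T) (interaction -1.13, SE 0.18, adjusted p = 2.4e-05).

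In 28 genes both tissues changed past the limits and in opposite directions, 24 of them up in Cb and down in F/M. DESeq2, the fit with a replicate block and fits of each tissue alone gave 16 each. The T and N libraries were apart in both tissues for 21 of the 28, and in 18 of the 24 the F/M-N level was more than 4-fold above that of Cb-N. *Cdhr1* (chromosome 14, 37077857 to 37098347), a cadherin-related gene of olfactory bulb projection neurons, fell in F/M from 28, 28.8 and 26.5 CPM to 13.3, 12.5 and 12.9 CPM and rose in Cb from 0.311, 0.459 and 0.511 CPM to 2.19, 2.58 and 2.28 CPM. Its Cb-T level stayed below the level of F/M-T, and the interaction was 3.56 (SE 0.23, adjusted p = 3.1e-13). *Col24a1* (chromosome 3, 145292472 to 145552011), a fibrillar collagen gene, fell in F/M from 8.42, 9.41 and 8.94 CPM to 4.86, 5.01 and 6.94 CPM and rose in Cb from 0.4, 0.642 and 0.511 CPM to 3.38, 3.06 and 3.52 CPM (interaction 3.34, SE 0.26, adjusted p = 2.8e-11).

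The activity-regulated factors *Egr3* and *Egr2* had the same form at very unequal levels. *Egr3* (chromosome 14, 70077203 to 70082614) had 187, 188 and 192 CPM (F/M-N) vs. 119, 118 and 119.6 CPM (F/M-T), against 1.46, 1.33 and 1.44 CPM (Cb-N) vs. 3.46, 2.62 and 2.9 CPM (Cb-T). *Egr2* (chromosome 10, 67535475 to 67542188) had 24.7, 22.7 and 23.8 CPM (F/M-N) vs. 12.8, 13.3 and 12.9 CPM (F/M-T), against 0.0888, 0.0918 and 0.278 CPM (Cb-N) vs. 1.1, 0.685 and 0.829 CPM (Cb-T). The groups did not overlap in either tissue, and the interactions were 1.75 (SE 0.15, adjusted p = 2.6e-10) and 3.34 (SE 0.39, adjusted p = 9.0e-08), although Cb-N held only a few counts of *Egr2*, near the floor.

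*Aplnr* (chromosome 2, 85136225 to 85139923), the receptor of the peptide apelin, and *Scand1* were the only baseline-matched genes of the 28. *Aplnr* had 0.868, 0.856 and 0.466 CPM (F/M-N) vs. 0.307, 0.207 and 0.386 CPM (F/M-T), and 0.533, 0.642 and 1.02 CPM (Cb-N) vs. 2.24, 1.57 and 1.58 CPM (Cb-T). The groups were apart in both tissues at these low levels, and the interaction of 2.56 (SE 0.48, adjusted p = 1.7e-04) was the highest among the 141 baseline-matched calls. *Cd300a* (chromosome 11, 114890041 to 114904654), an inhibitory receptor of myeloid cells, had the reverse pattern, rising in F/M from 1.09, 1.35 and 1.02 CPM to 2.02, 1.7 and 2.74 CPM and falling in Cb from 13.1, 14 and 12.5 CPM to 9.03, 9.06 and 7.88 CPM (interaction -1.51, SE 0.23, adjusted p = 7.7e-06).

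Other genes of opposite direction had low levels in Cb-N. *Shisa3*, *Fbxo40*, *BC035947*, *Agmat*, *Eda2r* and *Adamts19* were up in Cb and down in F/M, with interactions of 3.06, 2.86, 2.52, 2.27, 1.77 and 3.05 in that order, and adjusted p from 6.2e-08 (*Shisa3*) to 0.0020 (*Eda2r*). No Cb-N library had a count of *Ppp1r3a*, a glycogen-targeting phosphatase subunit gene, against 0.169, 0.282 and 0.249 CPM in Cb-T, 0.608, 0.946 and 0.762 CPM (F/M-N) vs. 0.175, 0.249 and 0.3 CPM (F/M-T), so no fold is given. The antisense gene *Man2c1os* rose in F/M and fell in Cb (interaction -1.48, SE 0.32, adjusted p = 9.2e-04), and whether its reads were told apart from its sense partner depends on a strand setting not given in the sources used here.

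**Figure D5:**
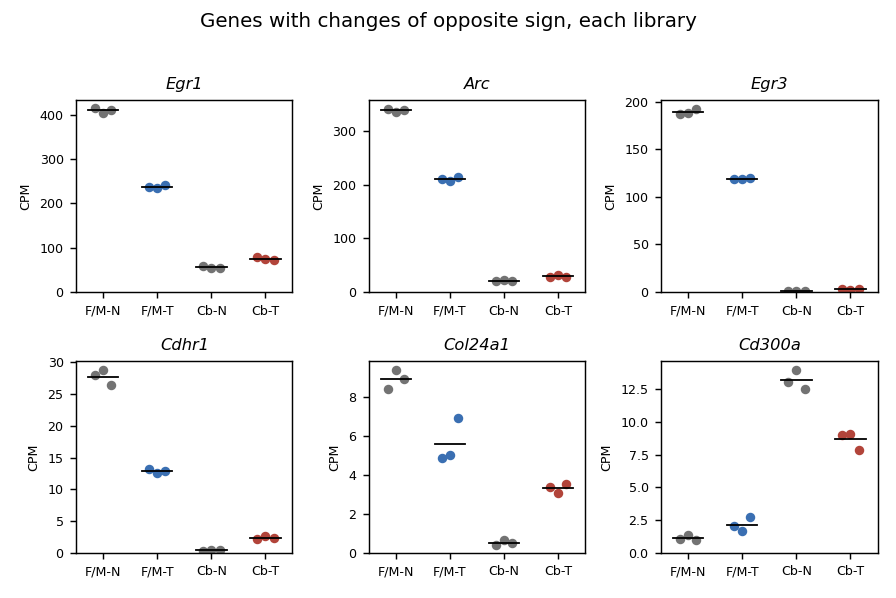
Level in each library (CPM, axis from 0) of 6 genes whose change differed in sign between the tissues. Each point is a library and each line the mean of 3. *Egr1*, *Arc*, *Egr3*, *Cdhr1* and *Col24a1* are lower in F/M-T than in F/M-N and higher in Cb-T than in Cb-N, with *Egr1* and *Arc* within the fold limit in Cb, and *Cd300a* shows the reverse.

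Changes of like size in both tissues were sought as well, since a missed interaction does not show equality. Of 354 genes changed in both tissues in the same direction, 45 had a 95% interval of the difference wholly within 1.5-fold in either direction, 29 of them up and 16 down, and 32 were baseline-matched. In 13 of the 45 the interval excluded 0. Beside *Tpp1*, this set held *B2m* (interval -0.22 to -0.02 on the log2 scale), the immunoproteasome subunit gene *Psmb8* (-0.55 to 0.41), the galectin gene *Lgals9* (-0.16 to 0.46), the immune checkpoint ligand gene *Cd274* (-0.56 to 0.28), the class I-like gene *H2-T24* (-0.55 to 0.55, or -0.73 to 0.73 by the F statistic of the difference itself) and *Olfml1*, an olfactomedin-like gene (-0.003 to 0.40). *Fosl2*, a subunit of AP-1, fell in both tissues, from 81.5, 83.2 and 79.8 CPM to 33.2, 37.9 and 37.8 CPM in F/M and from 44.1, 41.6 and 42.6 CPM to 15.2, 16.1 and 16.5 CPM in Cb, with an interval of -0.41 to -0.11. By list, the 45 held 4 of 32 interferon, 3 of 16 MHC class I, 3 of 10 MHC class II and 3 of 29 immediate early genes tested. They also held 2 of 44 lysosomal, 1 of 23 clock and 1 of 24 disease-associated microglia genes. These counts stand beside 45 of all 17482 genes tested.

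Microglial and complement genes with unequal control levels were mostly more positive in Cb. None of the 14 homeostatic microglia genes was baseline-matched, with a median Cb-N level of 0.290 times that of F/M-N, and 10 were more positive in Cb, beside 13.6% of all genes 1.5-fold to 4-fold higher in F/M-N. *Cx3cr1*, the fractalkine receptor, had 53.7, 48.7 and 48.8 CPM (F/M-N) vs. 62.1, 64.7 and 60.6 CPM (F/M-T), against 14.8, 15.7 and 13.6 CPM (Cb-N) vs. 41.4, 42.5 and 41.1 CPM (Cb-T) (interaction 1.20, SE 0.07, adjusted p = 1.6e-13), so its Cb-T level stayed below F/M-N. *Fcrls*, an Fc receptor-like gene of microglia, rose from 3.68, 3.76 and 3.81 CPM to 35.6, 35.4 and 36.4 CPM in Cb and from 19.5, 16.4 and 19.2 CPM to 35.5, 37.4 and 35.6 CPM in F/M, and the T libraries of the tissues overlapped (interaction 2.28, SE 0.10, adjusted p = 1.2e-16). Complement genes, with a median Cb-N level of 0.520 times that of F/M-N and so beside the same 13.6%, gave 8 more positive of 19 and 1 less positive, *Masp2*, which DESeq2 and limma-voom did not call and which was lost in 8 of the 12 fits without 1 library (all but those without F/M-N library 3, F/M-T library 2, Cb-N library 2 or Cb-T library 3). In this list *C1qa*, a subunit of the initiating complex, had 12.8, 12.9 and 14.7 CPM (Cb-N) vs. 86.8, 87.2 and 82.6 CPM (Cb-T), and 36.1, 35.8 and 36.2 CPM (F/M-N) vs. 80.7, 78.4 and 80.5 CPM (F/M-T) (interaction 1.52, SE 0.07, adjusted p = 4.9e-17). *C3*, the central component, was already higher in Cb-N and rose from 2, 2.11 and 2.04 CPM to 21.6, 25.3 and 23.3 CPM in Cb against 1.43, 0.946 and 1.48 CPM to 2.89, 3.15 and 3.26 CPM in F/M (interaction 2.25, SE 0.24, adjusted p = 1.5e-08).

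Neuronal lists held further calls. The neuropeptide, cholinergic and forebrain lists were scarce in Cb-N and stand beside the 639 more positive calls among all 1404 genes more than 4-fold higher in F/M-N, a share of 45.5%, and how they differ from it was not tested. Of 25 neuropeptide genes tested, 15 were more positive in Cb and 0 less positive, with a median Cb-N level of 0.0358 times that of F/M-N. *Tac1*, the precursor of substance P, had 1.02, 1.1 and 0.835 CPM (Cb-N) vs. 8.61, 8.5 and 7.88 CPM (Cb-T), while F/M-N (43.4, 41.5 and 43.7 CPM) and F/M-T (45.5, 43 and 44.8 CPM) overlapped (interaction 3.02, SE 0.14, adjusted p = 3.1e-16). *Pdyn*, the precursor of dynorphins, had 0.577, 0.229 and 0.65 CPM (Cb-N) vs. 7.6, 7.25 and 7.96 CPM (Cb-T), and 38.2, 36.1 and 38.4 CPM (F/M-N) vs. 41.2, 38.6 and 39.4 CPM (F/M-T) (interaction 3.87, SE 0.19, adjusted p = 6.0e-16). *Slc17a6*, a vesicular glutamate transporter of brainstem and diencephalic neurons, rose from 21, 20.1 and 22.5 CPM in Cb-N to 103, 101 and 103 CPM in Cb-T and had 127, 128 and 127 CPM (F/M-N) vs. 122, 126 and 119 CPM (F/M-T), apart but within the fold limit (interaction 2.33, SE 0.05, adjusted p = 1.2e-23). The lists of GABA and glycine transmission and of monoamine neurons had median Cb-N levels of 0.744 and 0.778 times those of F/M-N, and stand beside the 6.41% more positive and 1.20% less positive of all genes. GABA and glycine transmission gave 9 more positive and 1 less positive of 31, the latter *Slc6a5*, the neuronal glycine transporter. Its 11 baseline-matched members gave 0 calls. All its calls were thus of genes with unequal baselines, where up to 45.5% of a class was more positive. Cholinergic and motor nucleus genes gave 4 more positive and 1 less positive of 6, the latter the homeobox gene *Isl1*, whose call was lost in 6 of those 12 fits (without F/M-N library 1, F/M-T library 1 or 3, Cb-N library 3, or Cb-T library 2 or 3). Monoamine neuron genes gave 2 and 2 of 10, namely *Dbh* and the vesicular transporter *Slc18a2* against *Tph2* and *Slc6a4*. Among 19 forebrain transcription factors, with a median Cb-N level of 0.00242 times that of F/M-N, 5 were more positive. Of these 5, *Lhx2* had 0.0888, 0.0459 and 0.186 CPM (Cb-N) vs. 1.27, 1.49 and 1.82 CPM (Cb-T). In these lists the Hox genes moved with the result, at the sums given above. Of 30 Hox genes, 10 were tested and 20 were too low, and in F/M the counts were at or near 0. At such sums the 10 passed the filter mainly through Cb-T. That all 10 rose past the limits in Cb, beside 11.9% of all genes changed there, is therefore no result about them. For these 10 genes edgeR gave 0 interaction calls and 1 gene at an unadjusted p under 0.05, DESeq2 gave 2 calls and limma-voom 10, so no interaction is given for them.

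The members of the remaining lists below are named after their values were seen, and their counts stand beside the 6.41% more positive of all genes and the 1.43% called of all baseline-matched genes. Counts near these shares are no result about a list. Lysosomal genes gave 5 more positive of 44 (median interaction 0.22), of which *Ctsd* alone was among the 35 baseline-matched members. *Ctsd* was also the single call among 12 genes of neuronal ceroid lipofuscinoses. MHC class II gave 3 of 10, *H2-DMa*, *Ctss* and *H2-Ob*. These 3 were 1.5-fold to 4-fold higher in F/M-N, where 13.6% of all genes were more positive. The 5 baseline-matched class II members gave 0 calls. In addition, 3 lymphocyte genes were more positive, *Lck*, *Trbc2* and *Cd4*, of 5 tested among 18 on the list. The other 13 were too low to be tested, and the median Cb-N level of the 5 was 0.109 times that of F/M-N, in the range of baselines where 45.5% of all genes were more positive. The call of *H2-DMa* was lost without F/M-N library 3, Cb-N library 2 or Cb-T library 1 (interaction 0.50 to 0.57), that of *H2-Ob* without F/M-T library 2, Cb-N library 1 or Cb-T library 2 (1.09 to 1.22) and with DESeq2, and that of *Trbc2* without Cb-N library 3 or Cb-T library 1 (1.55 and 1.84). On the CPM scale the mean of *Cd4* went from 0.0457 to 0.385 in Cb and from 7.87 to 8.57 in F/M, so its gain was larger in F/M. Single members were more positive in Cb on the lists of the clock (*Npas2*, 23 tested), the unfolded protein and integrated stress response (*Atf3*, 24 tested), endothelium (*Cd34*, 18 tested), pan-neuronal genes (*Uchl1*, 14 tested), mature oligodendrocytes (*Opalin*, 18 tested) and proliferation (*Mki67*, 18 tested). Of the 18 mature oligodendrocyte genes, 18 had an interaction above 0 (median 0.33) and 17 an unadjusted p under 0.05, all but *Opalin* within the fold limit. The calls of *Opalin* and *Mki67* were not called by DESeq2. *Opalin* was also under the fold limit without F/M-N library 2, F/M-T library 2, Cb-N library 2, Cb-T library 1 or Cb-T library 2 (interaction 0.51 to 0.56), and *Npas2* without Cb-N library 2 or Cb-T library 2 (0.58 in each case).

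Genes of cerebellar neurons are set here beside the 62 less positive calls among the 619 genes more than 4-fold higher in Cb-N, a share of 10.02%. Granule cell genes gave 1 more positive, *Barhl1*, and 2 less positive of 14, the cadherin gene *Fat2* and the homeobox gene *En2*, and at an unadjusted p under 0.05 the counts were 1 and 10. The call of *Fat2* was lost without F/M-N library 1 or 3 or F/M-T library 2 or 3 (interaction -0.72 to -0.56) and with limma-voom, that of *En2* without F/M-T library 3 (-0.55) and that of *Barhl1* without F/M-N library 3 (0.62). Purkinje cell genes gave *Ppp1r17* alone of 12, and 10 less positive at an unadjusted p under 0.05. Glutamate receptors and transporters, a list with a median Cb-N level of 0.578 times that of F/M-N and so beside 13.6% more positive and 0.401% less positive, gave 3 more positive, *Grm5*, *Slc17a8* and *Slc17a6*, and 1 less positive of 27, *Grm2*, a metabotropic receptor of Golgi cells. *Slc17a8* had means of 0.181 CPM (Cb-N) vs. 0.707 CPM (Cb-T), against 6.10 CPM (F/M-N) vs. 6.68 CPM (F/M-T), so on the CPM scale its gain too was larger in F/M. *Grm2* fell from 22.1, 22.9 and 22 CPM to 10.6, 9.99 and 9.91 CPM in Cb, and had 49, 48.5 and 52.8 CPM (F/M-N) vs. 42.3, 42.5 and 41 CPM (F/M-T), a difference within the fold limit (interaction -0.88, SE 0.08, adjusted p = 4.6e-10).

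Heat shock (18 tested), homeostatic astrocyte (15), choroid plexus (13), meningeal (14), red blood cell (5) and pituitary (2) genes gave 0 calls in edgeR, DESeq2 and limma-voom. At an unadjusted p under 0.05 in edgeR, 9 homeostatic astrocyte genes were more positive and 1 less positive, against 5 and 2 heat shock genes, 2 and 5 choroid plexus genes, 2 and 1 meningeal genes, 1 and 0 red blood cell genes and 0 and 0 pituitary genes. For lists with calls in 1 direction, the other direction held 1 reactive astrocyte, 0 disease-associated microglia, 0 homeostatic microglia, 2 lysosomal, 2 neuropeptide and 1 interferon gene at an unadjusted p under 0.05. It also held 4 pan-neuronal and 3 clock genes, and 1 gene each of MHC class I, the unfolded protein and integrated stress response, proliferation and the neuronal ceroid lipofuscinoses. Of these, limma-voom called 1 neuropeptide gene and DESeq2 0.

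The sign of an interaction depends on the scale in a small part of the calls. For 54 of the 1331 genes the change in CPM, as a plain difference of group means, was larger in the direction opposite to the log2 interaction. None of these was baseline-matched, which the 1.5-fold limits on the baseline and on the interaction mostly set by construction. An interaction on the log2 scale compares factors, so a gene that is scarce in Cb-N can show a large factor from a small gain in CPM.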

How the data were processed

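Poly(A) RNA of 12 brain tissue samples was sequenced as single-end reads of 50 bases with a stranded kit. Per the labels and the submitters' processing notes, the authors aligned the reads to mm10 with STAR 2.5.1b and counted them per gene with featureCounts 1.26.1, and the deposited values are raw counts per gene, with no normalization and no pooling. The annotation release, the strand setting and the treatment of multi-mapping reads are not given in the sources used here.

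Groups were taken from sample titles. Genes were kept by filterByExpr (minimum count 10, minimum total 15) and tested with edgeR 4.0.16 (R 4.3.3): TMM factors, 1 mean per group over all 12 libraries, quasi-likelihood tests of the interaction and of each tissue, and Benjamini-Hochberg adjustment over all tested genes. Calls required an adjusted p under 0.1 and a 1.5-fold change. An SE is the log2 change divided by the root of its F statistic. Intervals of 95% for the difference between tissues used the sum of the squared SEs of both tissues. Levels are TMM-scaled CPM.

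Named genes were the 12 highest and 12 lowest baseline-matched interactions (clone names left out, a mean of at least 1 CPM in a group, T and N apart in at least 1 tissue), the 12 genes with the larger change in F/M and the 15 of opposite direction with the smallest p, the 8 of like change with the largest smaller change, up to 4 called members of each list, and *Tpp1*. Outside this rule, *Fos*, *Clec7a*, *C3*, *Aspg*, *Fbln5*, *Osmr*, *Lilrb4a*, *Bst2*, *Oasl2*, *Isg15*, *Ifit1*, *Cxcl10*, *Masp2*, *Slc6a5*, *Isl1* and the tissue markers were named with their values known. A few called genes are not reported here. The members and lists were chosen with earlier results of these data known. Positions are from GENCODE on GRCm38 and promoters from RefSeq on GRCm38.p6. No column of per-sample values was left unused (0 columns).

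Alternatives were DESeq2 1.42.0, limma-voom (limma 3.58.1), other scalings, filters, thresholds and baseline limits, a replicate block, and the omission of each library. The correction for GC content and transcript length, the interval from the F statistic of the difference itself, and the counts of the lists under all alternatives were added after the data had been seen. Libraries of the same number did not deviate together: the correlations of their deviations from the group means ranged from -0.0157 to 0.0616, so no pairing was used.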

Additional observations from a re-analysis of the deposited data

Results flagged for a closer look

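The change with genotype differed between the tissues, by the test of the interaction itself, for 1331 genes, of which 141 were baseline-matched, and for 9 interferon-stimulated genes, all less positive in Cb.

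Among the genes of opposite direction whose libraries were apart in both tissues, the log2 interaction was 3.56 for *Cdhr1*, 3.34 for *Col24a1*, 1.75 for *Egr3*, 3.34 for *Egr2*, 3.06 for *Shisa3*, 2.86 for *Fbxo40*, 2.52 for *BC035947*, 3.05 for *Adamts19*, 2.27 for *Agmat*, 1.77 for *Eda2r* and 2.56 for *Aplnr*. It was -1.51 for *Cd300a* and -1.48 for *Man2c1os*, which were higher in F/M-T and lower in Cb-T. Each of these interactions was tested across all genes with edgeR. *Egr2*, *Adamts19* and *BC035947* had Cb-N libraries at or near the floor of 3 counts, so the size of their log2 values is uncertain.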

How the results depend on the processing

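Of 290 counts recomputed under an alternative, 261 stayed within 1.5 times the reported count, and of 2240 recomputed interactions of the 103 named genes with a call, 2141 kept the call, 99, in 31 genes, lost it and 0 changed sign. Of the 8 named genes without a call, 3 near 0 changed sign in 12 values, *Tpp1*, *H2-T24* and *Psmb8*. The cause of the following moves was not tested, apart from the fewer genes or the other limits that an alternative sets by construction. With DESeq2, 51 genes had the larger change in F/M and 16 opposite directions. With a mean count of at least 50, 877 interactions were called, 726 more positive in Cb, 39 with the larger change in F/M and 7 of opposite direction. At an adjusted p under 0.05, 54 had the larger change in F/M. With no fold limit the counts were 4816 in all, 3046 more and 1770 less positive in Cb, 1876 baseline-matched, 746 larger in F/M, 558 opposite, 2928 alike, 94 with the other sign in CPM and 18 disease-associated microglia genes. With glmTreat, which tests against the 1.5-fold difference, they were 474 in all, 453 more and 21 less positive, 17 baseline-matched, 18 larger in F/M, 21 with the other sign in CPM, 2 interferon genes, 7 disease-associated microglia genes and 7 reactive astrocyte genes. A stricter baseline limit left 87 baseline-matched calls and a limit of 2-fold gave 266. Fits of the 6 libraries of each tissue alone gave 16 genes of opposite direction.

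With a replicate block that joined the Cb and F/M libraries sharing a genotype and a number, 1346 interactions were called, 143 of them baseline-matched, and 16 genes had opposite directions. With each library left out in turn, the counts ranged from 1237 to 1359 in all, 981 to 1130 more and 183 to 290 less positive, 125 to 156 baseline-matched, 72 to 97 larger in F/M, 21 to 36 opposite, 41 to 49 alike, 42 to 56 with the other sign in CPM, 8 to 10 interferon, 9 to 11 microglia, 15 to 17 astrocyte and 15 to 16 neuropeptide genes, and 87 of the 103 named genes with a call kept it in all 12 fits. The share of baseline-matched calls that were more positive in Cb was 62.4% with TMM and 55.6% to 66.2% with the other scalings. Alike genes and the CPM scale were not run with DESeq2 or limma-voom, alike genes not with glmTreat, and named genes not with other thresholds. Genes of about 1 CPM rest on few counts, and differences under 1.5-fold were left uncalled by the fold limit.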
